A study of Drosophila melanogaster with 28 samples.

Results

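CLAMP regions without MSL2 peaks on the autosomes were examined in chromatin assembled in vitro from Drosophila DNA. The peaks of 9 lists were merged where they overlapped by at least 1 bp, which gave 1098 regions. A region was kept if it lay on chromosome 2, 3 or 4, overlapped a peak of the CLAMP or FLAG antibody, and overlapped no peak of the 3 MSL2 antibody lists. This rule kept 294 regions, which were thus chosen by the presence of peaks in these lists. They are 41.8% of the 703 regions with a CLAMP or FLAG peak on the arms of chromosomes 2, 3, 4 and X.

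Genomic DNA purified from BG-3 cells, a neural line of Drosophila larvae, went through chromatin assembly for 5 h, and proteins were bound for 30 min before crosslinking and partial MNase digestion. With the FLAG antibody, which recognises an epitope tag, the added protein was the CLAMP mutant or CLAMP. With the CLAMP antibody it was MSL2 with the CLAMP mutant, the mutant alone, MSL2 with CLAMP, or CLAMP alone. With the MSL2 antibody it was MSL2 with the mutant, MSL2 with CLAMP, or MSL2 alone, and each antibody had a negative control whose added proteins the labels do not give. The chromatin of every group came from the same cell line, no living cell was assayed, and the labels do not describe the mutation. The 6 FLAG and CLAMP antibody groups had 2 libraries each and the 3 MSL2 antibody groups 3 each. Nothing in the labels says whether the libraries of a group came from separate assemblies.

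CLAMP recognises GA-rich sequence through its zinc fingers, throughout the Drosophila genome, on the autosomes as well as on X. MSL2 is the male-specific DNA-binding subunit of the dosage compensation complex, which raises transcription from the X chromosome in males, and CLAMP is known to help that complex reach X. GA-rich sequence is also read by other factors, such as the GAGA factor Trl and Pipsqueak. Autosomal CLAMP sites have been linked to other roles, among them regulation of the histone genes.

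Positions are 1-based on the genome build dm6. Each list was called on the merged libraries of a group, so values below have exact 95% intervals for the counting of regions and no replicate error. A peak had to reach 10-fold over the negative control of the same antibody and 4-fold over the surrounding 10000 bp. Total tags (mapped reads) ran from 3875205 for MSL2 with CLAMP in the CLAMP antibody precipitation to 26822838 for MSL2 alone in the MSL2 antibody precipitation. Peaks held 1.38% and 2.50% of the tags in the FLAG lists of the mutant and of CLAMP. In the CLAMP antibody lists they held 0.0377% with MSL2 and the mutant, 0.0328% with the mutant alone, 0.627% with MSL2 and CLAMP and 0.0658% with CLAMP alone. A region without an MSL2 peak lay under at least 1 of the calling filters, which is not a measured absence of MSL2. Presence in the lists chose the regions, so the counts by list describe them and were not tested.

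By antibody, the FLAG antibody found 142 of the 294 regions (48.3%, 42.5 to 54.2), against 49.5% of all 703 arm regions. The CLAMP antibody found 207 (70.4%, 64.8 to 75.6), against 74% of the arm regions. Both antibodies found 55 (18.7%, 14.4 to 23.6; 23.5% of the arm regions). A further 87 regions were found by the FLAG antibody only (29.6%; 26% of the arm regions) and 152 by the CLAMP antibody only (51.7%; 50.5%). Most regions were called once, with 199 in 1 list, 54 in 2 lists, 29 in 3, 8 in 4 and 4 in 5. No region was in all 6 lists. The share in 1 list was 67.7% (62.0 to 73.0), against 61.6% of the arm regions.

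**Figure D1:**
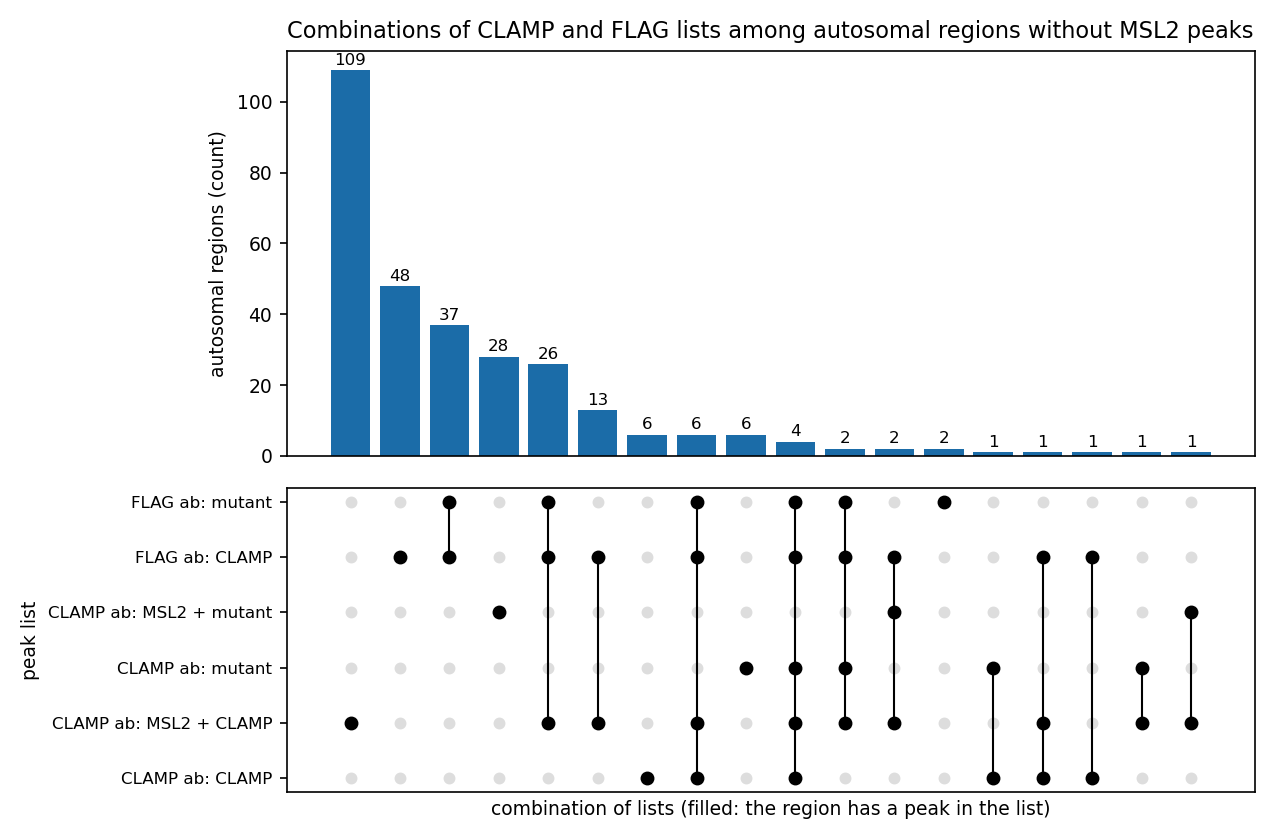
Number of autosomal regions without an MSL2 peak (vertical axis, count) for each combination of the 6 FLAG and CLAMP antibody lists (columns), with filled circles marking the lists that hold a peak. The most frequent combinations are the mixture of MSL2 and CLAMP by itself (109 regions), FLAG CLAMP by itself (48) and both FLAG lists (37).

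Not every region had a peak with CLAMP itself. A CLAMP peak was called in 258 regions (87.8%, 83.5 to 91.3; 91% of the arm regions), and the other 36 had peaks only where the mutant was added (12.2%; 8.96%). Of those 36, 28 were found only with the mutant and MSL2 together (9.52% of the 294; 7.11% of the arm regions), 6 only with the mutant alone by the CLAMP antibody, and 2 only with the mutant by the FLAG antibody. By presence of MSL2, 138 regions were called only where MSL2 had been added (46.9%, 41.1 to 52.8; 44.5% of the arm regions), 101 only where it had not (34.4%; 31.7%), and 55 in both settings (18.7%; 23.8%). The lists with MSL2 were all of the CLAMP antibody, and no FLAG list had MSL2. The 101 regions include the 87 found by the FLAG antibody only. Presence of MSL2 and antibody therefore cannot be told apart in this split.

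The 4 regions in 5 lists each had both FLAG peaks and CLAMP antibody peaks with the mutant alone, with MSL2 and CLAMP, and with CLAMP alone. All 4 lacked a peak with MSL2 and the mutant. One lay in fz2, a Wnt receptor gene (3L 19159495 to 19159719), and another in cmpy (3L 20718479 to 20718631), whose product limits growth of the neuromuscular junction. The others lay 10213 bp from shep, which encodes an RNA-binding protein (3L 5288157 to 5288328), and 2280 bp from lncRNA:CR45451 (2L 3849483 to 3849671).

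The 8 regions in 4 lists all had both FLAG peaks and a peak with MSL2 and CLAMP, and differed in the remaining CLAMP antibody list. The mutant alone was called, and CLAMP alone was not, in ush, which encodes a GATA cofactor (2L 490552 to 490847), and 1810 bp from CG34462 (3L 8332047 to 8332290). CLAMP alone was called, and the mutant alone was not, at the other 6. These lay 3636 bp from psq, the gene of the GA-binding protein Pipsqueak (2R 10553971 to 10554252), in Pvf3, a growth factor gene related to PDGF and VEGF (2L 7110723 to 7110936), and in Teh1, which encodes an auxiliary subunit of the sodium channel (3R 9866149 to 9866342). The rest lay in Tmtc2 (2L 935509 to 935684), in Dscam1, a neuronal recognition gene with very many splice forms (2R 7326853 to 7327004), and in a stretch 12697 bp from lncRNA:CR43239 (2L 17340765 to 17341033).

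The FLAG antibody, used without MSL2, found the mutant at 77 of the 294 regions (26.2%, 21.3 to 31.6) and CLAMP at 140 (47.6%, 41.8 to 53.5). Over all arm regions these shares were 30.6% for the mutant and 48.8% for CLAMP. Of the 77 mutant regions, 75 (25.5% of the 294; 29.9% of the arm regions) were also CLAMP regions (97.4%, 90.9 to 99.7; 97.7% over the arm regions). The mutant was found at 75 of the 140 CLAMP regions (53.6%, 45.0 to 62.0), against 61.2% over the arm regions, and the other 65 had the FLAG peak of CLAMP only (22.1% of the 294, against 18.9% of the arm regions). The mutant list had more tags (23512312) than the CLAMP list (17840662), and a lower share of them in peaks.

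Regions with both FLAG peaks included 3 in fz2, 1 in fz, another Wnt and polarity receptor (3L 14356136 to 14356318), and 1 in en, the segment-patterning homeobox gene (2R 11527880 to 11528142). They also included mam, which encodes a Notch coactivator (2R 14044302 to 14044512), pros, a switch of neural differentiation (3R 11391216 to 11391406), and nmo, a kinase gene (3L 8035162 to 8035326). Regions with the FLAG peak of CLAMP only included twi, the mesoderm factor gene (2R 23046178 to 23046384), and nAChRbeta1, a nicotinic receptor subunit gene (3L 4430394 to 4430548). Others lay 2407 bp from the homeobox gene Hmx (3R 17556248 to 17556523) and 822 bp from the homeobox gene slou (3R 21558004 to 21558208). The 2 regions with the mutant only (0.68% of the 294; 0.711% of the arm regions) lay 4796 bp from pdm3, a POU factor gene (2R 8322544 to 8322694), and 97098 bp from CR41519 (2L 23513251 to 23513401). The second of these was 244 bp from an MSL2 peak.

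With MSL2 and CLAMP added, the CLAMP antibody found 38 of the 75 regions with both FLAG peaks (50.7%, 38.9 to 62.4) and 16 of the 65 with CLAMP only (24.6%, 14.8 to 36.9). Over the arm regions it found 115 of 210 (54.8%) and 41 of 133 (30.8%). With CLAMP alone it found 10 of the 75 (13.3%, 6.58 to 23.2) and 2 of the 65 (3.08%, 0.375 to 10.7), against 33 of 210 (15.7%) and 7 of 133 (5.26%) over the arm regions. The members thus had the same order of shares as all arm regions. The rule drew on the lists of both antibodies, so no test was made.

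Peak centres of the mutant and CLAMP were close together in the FLAG lists. Over the 75 shared regions the centres lay a median of 8 bp apart and at most 101 bp, with 42 within 10 bp and 69 within 50 bp. At the region in fz2 listed above the mutant centre lay 1 bp from that of CLAMP, in Pvf3 the distance was 0, and beside psq the mutant centre lay 77 bp toward lower coordinates (-77 bp). Between the CLAMP antibody with MSL2 and CLAMP and the FLAG antibody with CLAMP, the median distance was 18 bp and the largest 125 bp, over 54 regions. Of these, 39 had centres within 50 bp. Peaks could share a region only by overlapping, directly or through another peak, and deposited peaks were 151 bp wide, so larger distances were mostly left out by the merging.

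**Figure D2:**
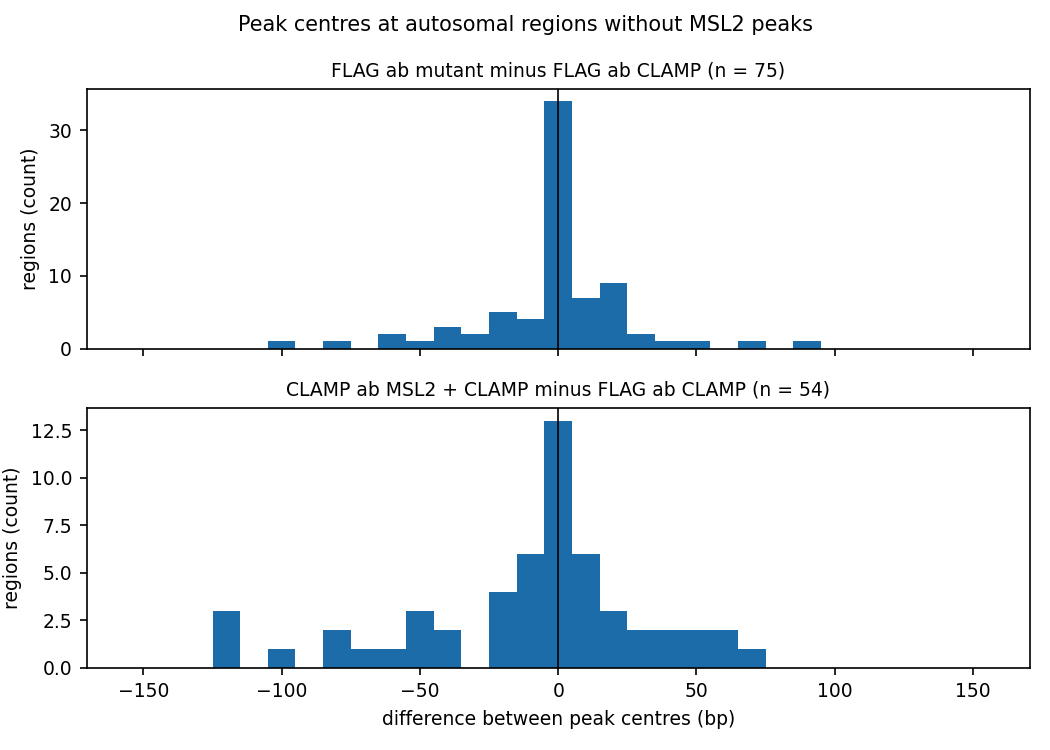
Difference between peak centres (horizontal axis, bp; vertical axis, number of regions) for the FLAG mutant minus FLAG CLAMP lists (top, 75 regions) and for the CLAMP antibody list of MSL2 and CLAMP minus the FLAG CLAMP list (bottom, 54 regions). Centres of the FLAG lists lie a median of 8 bp apart, and those of the different antibodies 18 bp.

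With the CLAMP antibody, the list with MSL2 and CLAMP held 165 of the 294 regions (56.1%, 50.2 to 61.9) and the list with CLAMP alone 19 (6.46%, 3.94 to 9.91). The shares over all arm regions were 60.9% with MSL2 and 10.1% without. Of the 19 regions of CLAMP alone, 11 were found with MSL2 as well (57.9%, 33.5 to 79.7), against 40 of 71 over the arm regions (56.3%). The 11 are 3.74% of the 294, against 5.69% of the arm regions, and the 8 found only without MSL2 are 2.72%, against 4.41%. Another 154 were in the list with MSL2 and not in that without (52.4%, against 55.2% of the arm regions). The list with MSL2 came from 3875205 tags and that without from 8571204. At the 140 FLAG CLAMP regions the CLAMP antibody found 54 with MSL2 (38.6%, 30.5 to 47.2; 45.5% over the arm regions) and 12 without (8.57%, 4.51 to 14.5; 11.7%). None of these regions had an MSL2 antibody peak, by the rule.

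The 109 regions found only in the mixture of MSL2 and CLAMP make up 37.1% of the 294 (31.5 to 42.9), against 37% of the arm regions. They included regions in Plc21C, a phospholipase gene (2L 348163 to 348313), robo2, an axon guidance receptor gene (2L 1399664 to 1399814), and nompC, a mechanosensory channel gene (2L 5353034 to 5353184). Another lay in Slob, named for binding the Slowpoke potassium channel (2L 7649715 to 7649865).

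Of the 19 regions of CLAMP alone, 6 were in no other list, among them regions in pyd, a scaffold gene of cell junctions (3R 8846784 to 8846934), Strn-Mlck (2R 15960302 to 15960452) and Myo81F (3R 1770605 to 1770755). The FLAG antibody found CLAMP at 54 of the 165 regions of the mixture (32.7%, 25.6 to 40.5; 36.4% over the arm regions) and at 12 of the 19 of CLAMP alone (63.2%, 38.4 to 83.7; 56.3%).

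For the mutant, the CLAMP antibody lists with and without MSL2 had no region in common among the 294. The mixture of MSL2 and the mutant held 31 regions (10.5%, 7.28 to 14.6) and the mutant alone 14 (4.76%, 2.63 to 7.86), against 9.96% and 5.41% of the arm regions. The first list came from 5949274 tags, with 2243 in peaks, and the second from 4587804, with 1506 in peaks. In the list of MSL2 and CLAMP, peaks held 24303 tags. Over the arm regions 0.853% were in both lists, 9.1% in the first only and 4.55% in the second only. The exact upper bound for the 0 of 294 was 1.25%. Set against CLAMP with MSL2 present, the mutant was found at 28 regions where CLAMP was not (9.52%; 7.4% of the arm regions), and at 3 where CLAMP was too (1.02%; 2.56%). Without MSL2, the CLAMP antibody found the mutant at 9 regions where it did not find CLAMP (3.06%; 2.56% of the arm regions), both at 5 (1.70%; 2.84%), and CLAMP without the mutant at 14 (4.76%; 7.25%).

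Of the 31 regions of the mutant with MSL2, 28 were in no other list, 0 overlapped a FLAG mutant peak (exact upper bound 11.2%; 17.1% over the arm regions) and 2 overlapped a FLAG CLAMP peak (6.45%, 0.791 to 21.4; 20% over the arm regions). Among the 14 regions of the mutant alone, 6 overlapped a FLAG mutant peak (42.9%, 17.7 to 71.1), against 22 of 38 over the arm regions (57.9%). The 2 regions with FLAG CLAMP peaks lay in twi and 1077 bp from CG18249 (3R 8223265 to 8223455), and both were also found with MSL2 and CLAMP. The other region shared with that mixture lay 328 bp from the homeobox gene Rx (2R 20916268 to 20916425). Regions found only with MSL2 and the mutant included TrissinR, a neuropeptide receptor gene (2L 5846169 to 5846319), the elongation factor gene TfIIS (2L 15060013 to 15060163), mtgo (2L 16652528 to 16652678) and DIP-lambda, a gene of cell surface recognition (2R 604182 to 604332).

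The gene Clamp itself held 2 of the 294 regions, each in 1 list of the mutant. One was found with the mutant alone (2L 22166808 to 22166958) and 1 with MSL2 and the mutant (2L 22167448 to 22167598). The first lay 33 bp from an MSL2 peak in the same gene and the second 673 bp from it. No list with unmutated CLAMP had a peak in either region. The MSL2 peak lay in a further Clamp region (2L 22166622 to 22166775), found with MSL2 and the mutant by the CLAMP and MSL2 antibodies. The gene msl-2 also held autosomal regions with an MSL2 peak, among them 2L 3463340 to 3463521. Clamp and msl-2 encode the proteins that were added, and whether this has any part in the peaks there was not tested.

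The 55 autosomal regions that did have an MSL2 peak were set beside the 294. The mutant had a FLAG peak at 26.2% of the 294 (21.3 to 31.6) and at 54.5% of the 55 (40.6 to 68.0). CLAMP had one at 47.6% of the 294 (41.8 to 53.5) and at 63.6% of the 55 (49.6 to 76.2). With MSL2 and the mutant the CLAMP antibody found 10.5% of the 294 (7.28 to 14.6) and 9.09% of the 55 (3.02 to 20). At FLAG CLAMP regions the mutant was found at 75 of 140 without an MSL2 peak (53.6%, 45.0 to 62.0) and at 29 of 35 with one (82.9%, 66.4 to 93.4). At least 2 of the 6 lists held 95 of the 294 (32.3%, 27.0 to 38.0; 38.4% of the arm regions) and 34 of the 55 (61.8%, 47.7 to 74.6). With MSL2 and CLAMP the CLAMP antibody found 38.6% of the 140 FLAG CLAMP regions (30.5 to 47.2) and 65.7% of the 35 (47.8 to 80.9). The presence of peaks in these lists defines both classes, so the values are a description and nothing was read from them.

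**Figure D3:**
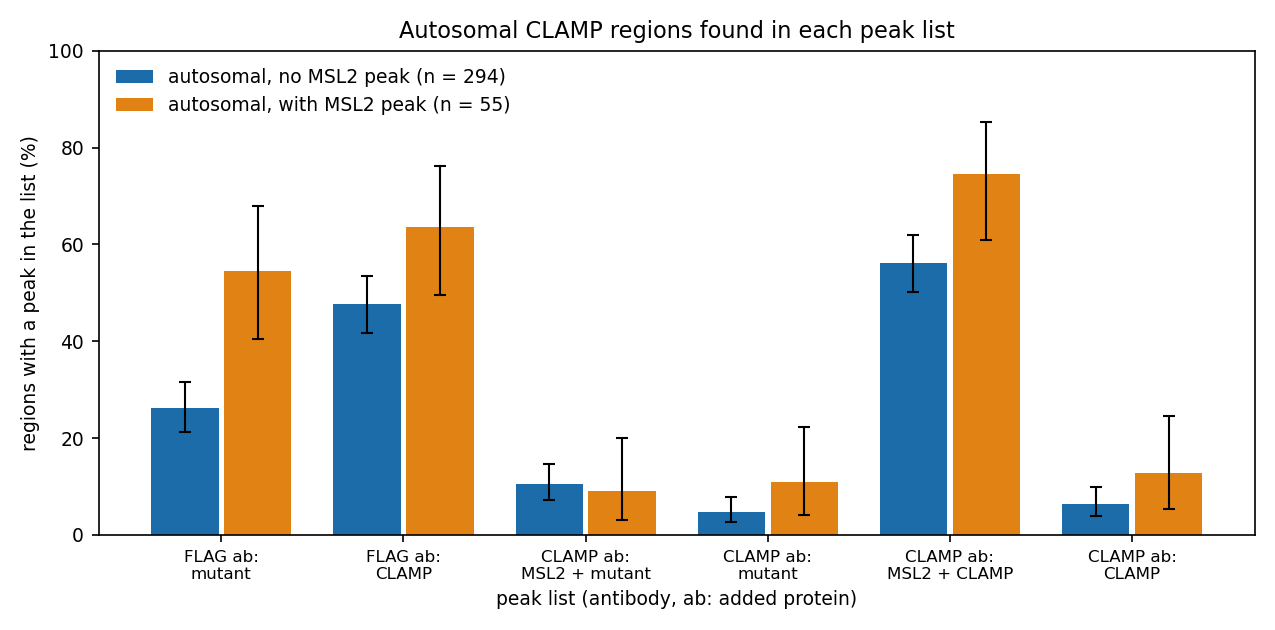
Share of autosomal regions with a peak in each FLAG or CLAMP antibody list (vertical axis, %), for the 294 regions without an MSL2 peak (blue) and the 55 with one (orange). Error bars are exact 95% intervals for counting. The blue bars reach 26.2% for the FLAG mutant and 47.6% for FLAG CLAMP, and the orange bars 54.5% and 63.6%.

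The X chromosome held 275 regions without MSL2 peaks. The mutant was found at 53.6% of the autosomal FLAG CLAMP regions and at 74 of 128 on X (57.8%, 48.8 to 66.5). The mixture of MSL2 and CLAMP held 56.1% of the autosomal regions and 149 of 275 on X (54.2%, 48.1 to 60.2). With CLAMP alone the CLAMP antibody found 6.46% of the autosomal regions (3.94 to 9.91) and 35 of 275 on X (12.7%, 9.03 to 17.3).

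The median distance from the 294 regions to the nearest MSL2 peak, in any of the 3 MSL2 lists, was 106890 bp (25th to 75th percentile 34374 to 196562), and 152 regions lay more than 100000 bp away. On X, the 275 regions without one lay a median of 28884 bp away (8436 to 74112). The median was 110196 bp for the 75 autosomal regions with both FLAG peaks, 65453 bp for the 65 with FLAG CLAMP only, 124919 bp for the 109 found only with MSL2 and CLAMP, and 116474 bp for the 28 found only with MSL2 and the mutant.

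**Figure D4:**
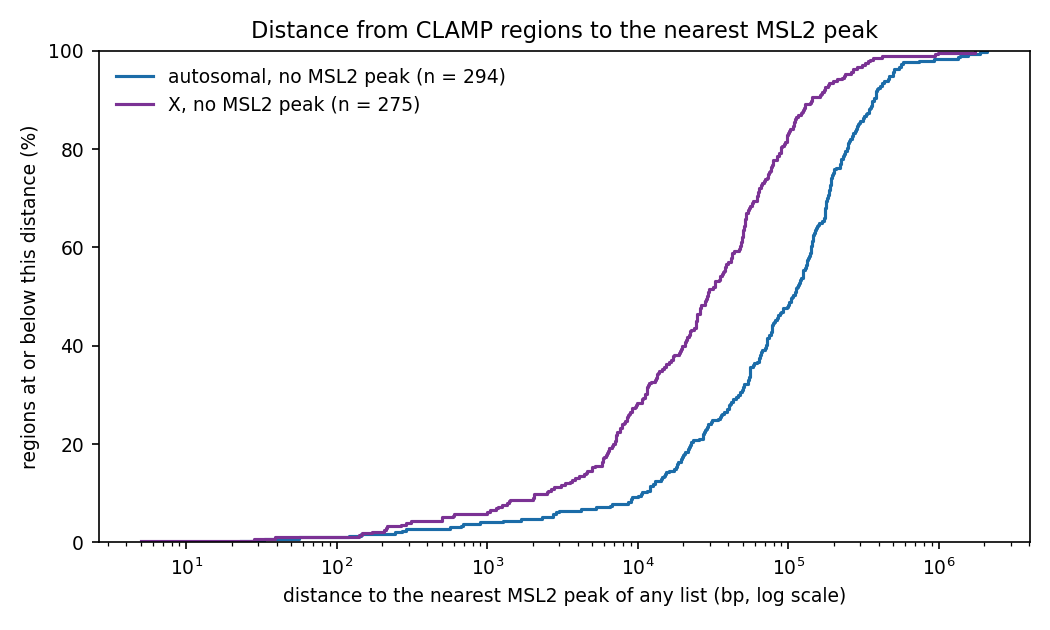
Cumulative share of regions (vertical axis, %) by distance to the nearest MSL2 peak of any list (horizontal axis, bp, log scale), for the 294 autosomal (blue) and 275 X regions (purple) without MSL2 peaks. The medians are 106890 bp on the autosomes and 28884 bp on X, without matching for the density of MSL2 peaks.

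Close to the limit of the rule, 8 regions lay within 500 bp of an MSL2 peak and 14 within 2000 bp. The nearest was 23 bp from one, 657 bp from salm, a zinc finger gene of wing and eye patterning (2L 11446271 to 11446421). The next were the first Clamp region at 33 bp and a region 3994 bp from SdhCL at 56 bp (3R 11110527 to 11110677). Of the autosomal regions kept out of the 294, those in which a CLAMP or FLAG peak overlapped an MSL2 peak least lay in sif (3L 5729092 to 5729375), with 49 bp of overlap, and in otp (2R 20896332 to 20896588), with 50 bp.

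All 4 large autosomal arms held such regions. There were 64 on 2L (2.72 per Mb), 74 on 2R (2.93 per Mb), 88 on 3L (3.14 per Mb) and 68 on 3R (2.12 per Mb). On 3R, which is 29.1% of the autosomal length, lay 23.1% of the regions (18.4 to 28.4), and on 3L, 25.4% of the length, lay 29.9% (24.8 to 35.5). Chromosome 4 is 1.15% of that length and held 0 of the 294 (exact upper bound 1.25%).

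Gene bodies held 200 of the 294 (68.0%, 62.4 to 73.3), and cover 68.5% of the autosomal length. The share was 80% for the 55 autosomal regions with an MSL2 peak (67.0 to 89.6), 78.5% for the 275 on X without one (73.2 to 83.2) and 76.2% over all arm regions. Genes longer than 20 kb held 147 of the 294 (50%, 44.1 to 55.9) and cover 37.4% of that length. Such genes held 56.4% of the 55 (42.3 to 69.7), 59.6% of the 275 (53.6 to 65.5) and 55.9% of all arm regions. Of the 828 autosomal genes longer than 20 kb, 120 held at least 1 region (14.5%), against 61 of the 14151 shorter ones (0.431%). Regions lay within 500 bp of an end of a gene in 43 cases (14.6%, 10.8 to 19.2), and which end was the promoter was not resolved. No share of other regions or of autosomal length is set beside this count, so it was not read as high or low. The 94 regions outside gene bodies lay a median of 3021 bp from the nearest gene. The share in genes longer than 20 kb was 54.7% for both FLAG peaks (42.7 to 66.2), 46.2% for FLAG CLAMP only (33.7 to 59.0), 56.0% for MSL2 and CLAMP only (46.1 to 65.5) and 32.1% for MSL2 and the mutant only (15.9 to 52.4).

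In all, 181 autosomal genes held a region (1.21% of 14979). MSL2 regions lay elsewhere in 32 of these 181 genes (17.7%), and 46 of the 200 regions in gene bodies (23%) shared a gene with one. The 181 genes had a median length of 33074 bp, against 1663 bp for all autosomal genes. No share for other genes of such length is set beside these counts, and sharing was not tested. Among the 32 genes were Eip75B, hth, pros, mbl, fru, chinmo, mam, Slob and Rbp6.

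Genes of the ecdysone response and nuclear receptors held regions in 6 of 22 autosomal members, 12 regions in all. They were Eip75B with 6 regions, Eip63E, a kinase gene, with 2, and Eip74EF, Eip93F, Hr3 and chinmo with 1 each. The list leaves out Eip63F-1, which held 1 region, found with MSL2 and CLAMP only. Of the 12 regions, FLAG peaks were found at 3 with the mutant and at 6 with CLAMP, and 8 were found with MSL2 and CLAMP. Over all 294 regions these lists held 26.2%, 47.6% and 56.1%. Regions in the same gene, such as the 6 in Eip75B, were counted singly. All 6 genes are among the 14 of the list that exceed 20 kb, a length at which 14.5% of all autosomal genes held a region. The same 14.5% is the background for the long genes of the other lists. The gene lists were chosen with earlier results of these data known, and lengths above 20 kb were not matched. The counts by gene list are thus a description and were not tested.

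Signalling genes held regions in 6 of 39 (fz2, fz, pnt, pyr, ed and aos), with 8 regions. Of the 39, 17 exceed 20 kb and 4 of these held a region. The FLAG antibody found the mutant at 6 of the 8 and CLAMP at all 8, against 26.2% and 47.6% of the 294. The other regions besides fz2 and fz lay in pnt, an ETS factor gene (3R 23321501 to 23321652), in pyr, an FGF gene (2R 11716554 to 11716712), in ed, a cell adhesion gene (2L 4060769 to 4060919), and in aos, an inhibitor of EGF receptor signalling that overlaps CG33158 (3L 16480839 to 16480989). A further region outside gene bodies lay 49 bp from pnt (3R 23346216 to 23346367). Only 2 of the 8 were found with MSL2 and CLAMP, both in fz2, against 56.1% of the 294. These counts depend on which genes the list holds. It leaves out Pvf3, where 2 of 2 regions were found with MSL2 and CLAMP, mam with 1 of 1, and nmo with 1 of 2.

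In the Hox list, Antp, a Hox gene, held 2 regions and hth, which encodes a Hox cofactor, held 3, and the other 11 of 13 genes held none. Of the 13, 7 exceed 20 kb, Antp and hth among them. All 5 regions were found with MSL2 and CLAMP by the CLAMP antibody and in no other FLAG or CLAMP antibody list. Of the 294 regions, 37.1% were found in that list only. Of other selector genes of pattern formation, 4 of 47 held regions (en, lbl, pdm3 and twi) and 4 more had regions within 2000 bp, 1 each beside cad, dac and sob and 2 beside slou. Of the 47, 10 exceed 20 kb and 3 of these held a region. The list leaves out the homeobox gene Rx, which held 1 region (2R 20919934 to 20920084), and pros, which held 2.

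Ion channel and synaptic genes held regions in 7 of 41 (nAChRalpha6, nAChRbeta1, Rdl, slo, stj, Slob and Rbp6), 10 regions in all. Of the 41, 23 exceed 20 kb and 5 of these held a region. The list leaves out nompC and Teh1, and Teh1 had both FLAG peaks. It takes in Rbp6, which is not a channel gene and held 2 of the 10 regions. Of the 10 regions, FLAG found the mutant at 0 and CLAMP at 3, and 8 were found with MSL2 and CLAMP. Over all 294 regions these lists held 26.2%, 47.6% and 56.1%. The FLAG regions of CLAMP lay in slo, a calcium-activated potassium channel gene (3R 24699369 to 24699519), nAChRbeta1, and Rbp6, the gene of an RNA-binding protein (3L 17198729 to 17198879). Axon guidance and adhesion genes held regions in 5 of 42, 1 each in Dscam1, robo2, side, caps and sns. All 5 are among the 31 of that list that exceed 20 kb. That list leaves out beat-IIIb, which held 2 regions. It also leaves out beat-IIb, side-VI, DIP-lambda, tutl, dpr11, dpr12, dpr13 and dpr21, which held 1 each. The 5 of 42 is therefore not a count over all such genes. Of the 26 genes of GA-binding proteins and of Polycomb or trithorax factors, Clamp alone held a region. Of 6 autosomal dosage compensation genes Clamp was again the only one. The 111 replication-dependent histone genes and 15 heat shock genes held 0, with median lengths of 529 and 2324 bp, where 0.431% of genes up to 20 kb held a region. Histone genes are near-identical copies, and whether reads from such copies were placed was not tested.

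At least 3 regions lay in each of 5 genes, and their makeup differed by list. In Eip75B, the gene of a nuclear receptor induced by ecdysone (3L 17950953 to 18064696), 5 of 6 regions were found with MSL2 and CLAMP and 2 with FLAG CLAMP. The sixth (3L 17978065 to 17978222) had both FLAG peaks and no CLAMP antibody peak, and 2 MSL2 regions lay elsewhere in the gene. In fz2 (3L 19140975 to 19235373) all 3 regions had both FLAG peaks, 2 were found with MSL2 and CLAMP, and no MSL2 region lay in the gene. In hth (3R 10507561 to 10639568) no FLAG list had a peak, the 3 regions came from MSL2 and CLAMP, and 3 MSL2 regions lay elsewhere in the gene, the closest 270 bp from a region. In nAChRalpha6, a nicotinic receptor subunit gene (2L 9793317 to 9886250), all 3 regions came from MSL2 and CLAMP. In twi, annotated over 63.0 kb (2R 22985374 to 23048325), all 3 were found with MSL2 and CLAMP, and FLAG found CLAMP at 1 of them.

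**Figure D5:**
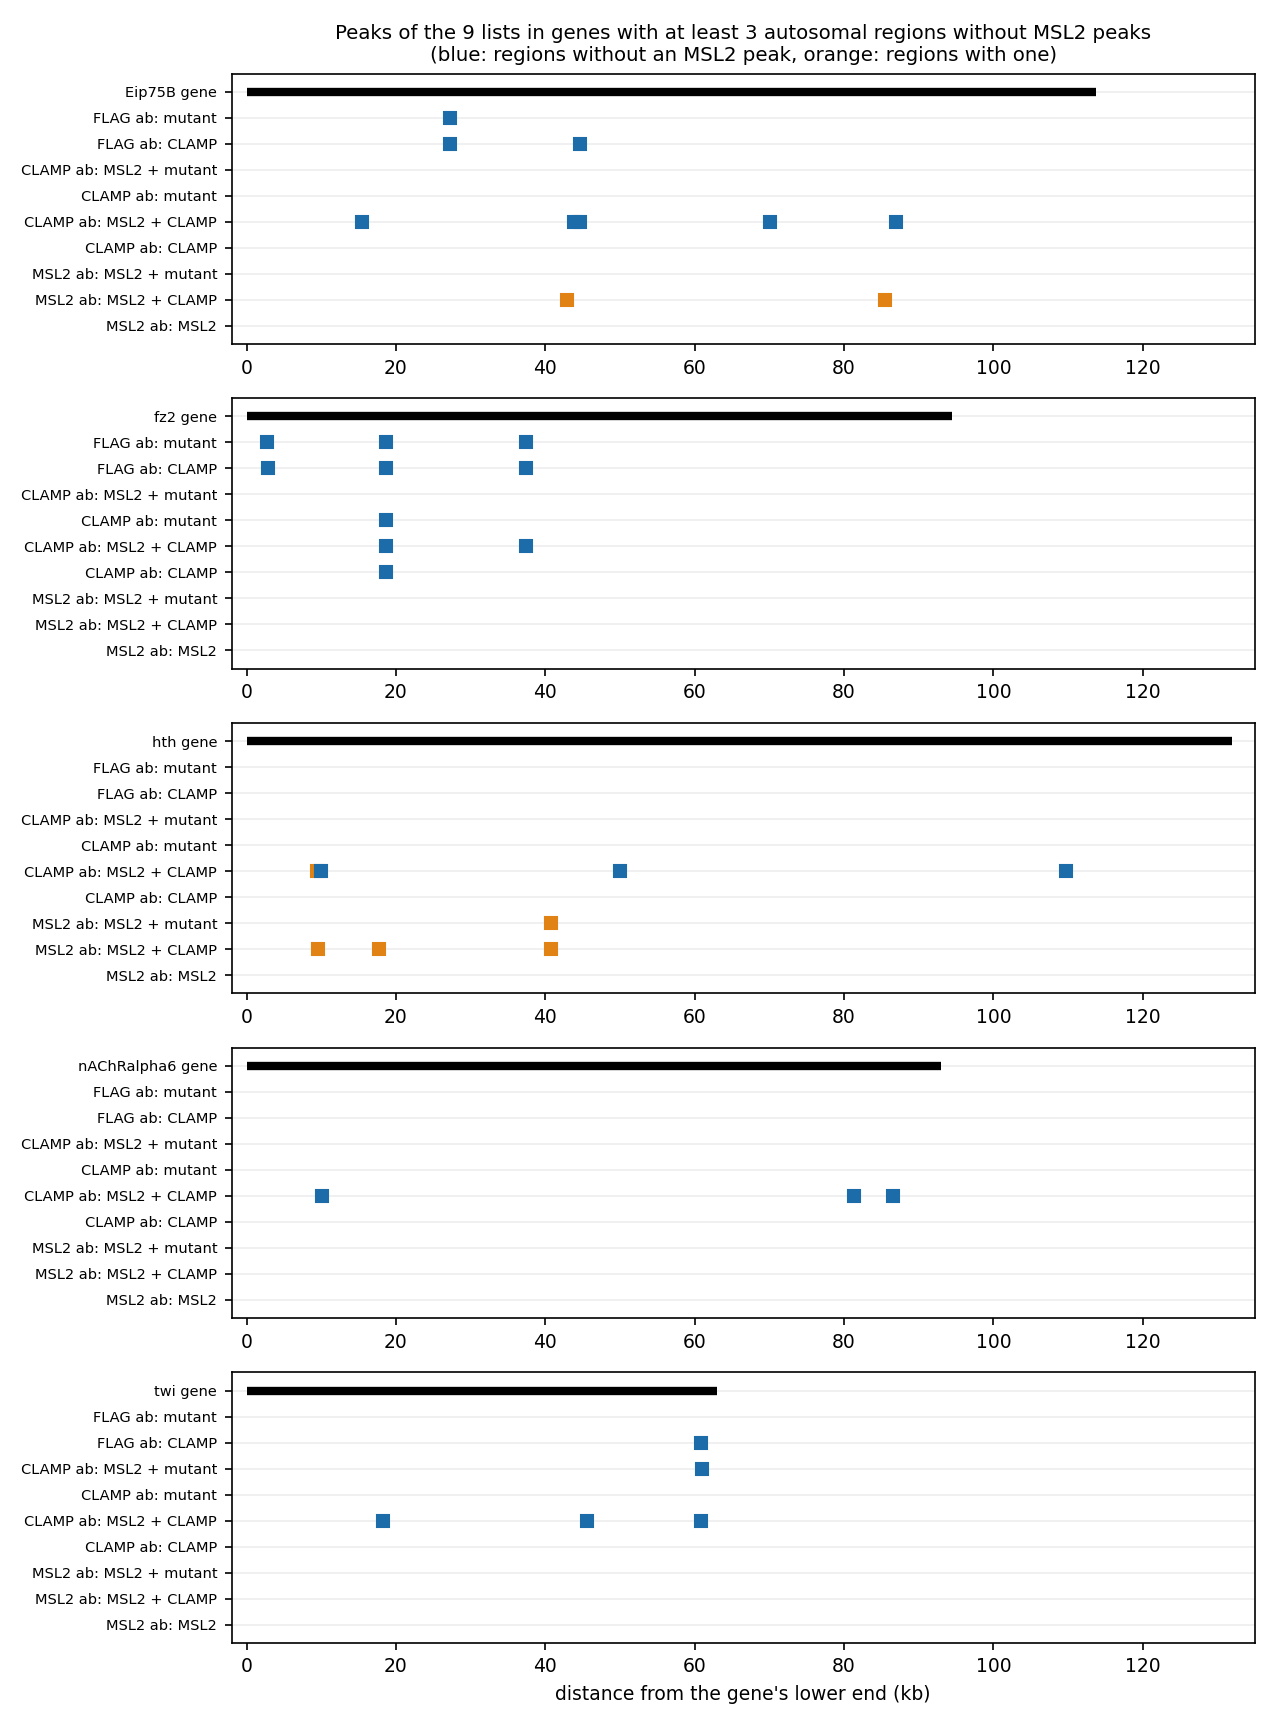
Peak centres of the 9 lists (rows) along the 5 genes with at least 3 autosomal regions without MSL2 peaks (horizontal axis, kb from the lower end of each gene; black bar, gene body). Blue squares are peaks in regions without an MSL2 peak and orange squares peaks in regions with one. In fz2 both FLAG lists have peaks at all 3 regions, and in hth neither has any.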

How the data were processed

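ChIP-seq peak lists of 9 groups were analysed, 1 per combination of antibody and added protein (21 of 28 libraries; the other 7 are negative controls). Bowtie2 2.2.9, SAMtools 1.9, HOMER 4.9 and the genome build dm6 are named in the submitters' processing notes. Per the file headers, HOMER findPeaks in factor style was run by the authors on merged tags against the antibody's own merged negative control, with a false discovery rate of 0.001 and a Poisson p of 1e-04 over control and surroundings. The deposited score column is 1 in every line and carries no measurement. Starts were made 1-based. All but 3 of 2013 peaks were 151 bp wide.

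The members and gene lists were chosen with earlier results of these data known. Peaks were merged in Python 3.11.15, checked with bedtools 2.31.1 (1098 regions and 294 members by both) and tested on simulated data. Genes came from a RefSeq table of Release 6 without strand. Named regions are the first 20 by number of lists, then width and position, the first 8 of each class of lists, every gene with 3 or more regions, and those in the listed genes; of these, the report prints a part. The regions in pros, nmo, pyd, Strn-Mlck and Myo81F and those near Rx, pnt, salm and SdhCL fall outside this rule and were chosen after their values were seen. So do some regions in genes named as left out of a gene list, such as Eip63F-1, Rx and tutl. Exact intervals (scipy 1.17.1) cover counting error only. Figures used matplotlib 3.10.9. Lists of 1 antibody share a negative control.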

Additional observations from a re-analysis of the deposited data

Results flagged for a closer look

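On the Y chromosome, outside the rule for autosomal regions, 2 regions had a CLAMP or FLAG peak and no MSL2 peak. They were called above the negative control, in data not used in the report. In all, 13 of the 14 Y regions had a CLAMP or FLAG peak, and 11 of these also had an MSL2 peak.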

How the results depend on the processing

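The count of 294 regions ran from 246 to 322 when peaks were joined within 500 bp (279), MSL2 peaks were kept 500 bp (286) or 2000 bp (280) away, the MSL2 lists were cut to their first 50% in file order (301), or each list was left out, except that it was 185 without the CLAMP antibody list of MSL2 and CLAMP and 180 with the first 50% of the CLAMP and FLAG lists. With the first 50% of each list, regions with MSL2 and CLAMP numbered 106 and those of the mutant alone 9. FLAG regions of the mutant only, 2 in number, became 5 at a reciprocal overlap of 50%, 1 with centres within 500 bp and 1 with MSL2 peaks at least 2000 bp away, which was chosen after seeing the data. The other counts by list stayed within 1.5 times. The median distance to an MSL2 peak was 545524 bp for the list of MSL2 alone and 247616 bp for that with the mutant, by construction, as those lists are shorter. With a margin of 2000 bp around genes, also added later, selector genes with a region numbered 8 instead of 4. No paired analysis was possible because each group has 1 merged list. Libraries could not be left out for the same reason. The planned share of regions with a GA repeat was not run, since no sequence was used here.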

Other observations

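Pairs of autosomal regions without MSL2 peaks lay within 1000 bp of each other in 11 cases, which involve 19 of the 294 regions. The shortest gap was 156 bp, in Pvf3, between the region in 4 lists and a region found with MSL2 and CLAMP only (2L 7111092 to 7111242). In beat-IIIb a region found with MSL2 and CLAMP only (2L 16986188 to 16986338) lay 189 bp from one that also had both FLAG peaks. Near lncRNA:CR43239 the region in 4 lists had a neighbour found with MSL2 and CLAMP only at 294 bp and another at 874 bp. Outside gene bodies, 2 regions at 13679 and 14039 bp from Dscam2, a relative of Dscam1, both had FLAG CLAMP peaks and lay 210 bp apart. These pairs were singled out after their values were seen and were not tested.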
